A study of Homo sapiens with 4 samples.

Results

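The zinc-dependent histone deacetylases were followed on every probe set that the array annotation gives to exactly 1 of HDAC1, HDAC2, HDAC3, HDAC4, HDAC5, HDAC6, HDAC7, HDAC8, HDAC9 and HDAC11. These 10 genes had 24 probe sets among the 54613 that are not controls. The study measured total RNA from 2 human non-small cell lung cancer lines on Affymetrix arrays, after transfection with siRNA against hMOF, the histone H4 acetyltransferase encoded by KAT8, or with scramble siRNA. The groups were H1299 with hMOF siRNA, H1299 with scramble siRNA, A549 with hMOF siRNA and A549 with scramble siRNA, with 1 array each and 4 arrays in all. H1299 is a line from a lymph node metastasis, A549 is an adenocarcinoma line, and both were grown in medium with 10% fetal bovine serum and transfected with a lipid reagent. The labels give neither the time after transfection nor the siRNA sequences, and nothing in them says that cultures were repeated. HDAC10, the remaining zinc-dependent deacetylase, was not among the genes followed.

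Histone deacetylases remove the acetyl groups that acetyltransferases such as hMOF place on lysines of histones and other proteins. HDAC1, HDAC2, HDAC3 and HDAC8 form class I, which is mostly nuclear and, apart from HDAC8, works inside corepressor complexes. HDAC4, HDAC5, HDAC7 and HDAC9 form class IIa, which has weak catalytic activity, binds MEF2 transcription factors and moves between nucleus and cytoplasm when kinases and the 14-3-3 proteins act on it. HDAC6 is a class IIb enzyme of the cytoplasm that acts on tubulin and cortactin, and HDAC11 is the only class IV member.

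The difference between the lines was widest at HDAC9, and the start regions of HDAC9 are shown with those of HDAC4, which differed the other way, and HDAC1. Each window runs from 250 bases before to 50 bases after a RefSeq start in GRCh38.p14, on the strand of the gene. Capitals mark the GC box GGGCGG on either strand.
HDAC9, outermost start, chr7:18086575-18086874, plus strand: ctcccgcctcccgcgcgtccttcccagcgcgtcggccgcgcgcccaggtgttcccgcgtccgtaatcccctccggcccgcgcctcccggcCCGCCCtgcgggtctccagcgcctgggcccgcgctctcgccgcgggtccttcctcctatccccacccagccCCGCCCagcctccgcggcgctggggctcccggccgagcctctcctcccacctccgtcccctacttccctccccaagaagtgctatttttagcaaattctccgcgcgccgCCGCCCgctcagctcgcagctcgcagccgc
HDAC9, internal start, chr7:18495499-18495798, plus strand: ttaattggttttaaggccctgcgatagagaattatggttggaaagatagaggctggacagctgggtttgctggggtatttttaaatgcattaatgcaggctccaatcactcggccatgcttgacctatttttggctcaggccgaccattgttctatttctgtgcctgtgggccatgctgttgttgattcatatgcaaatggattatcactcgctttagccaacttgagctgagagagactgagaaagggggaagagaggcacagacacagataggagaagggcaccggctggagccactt
HDAC4, outermost start, chr2:239401600-239401899, minus strand: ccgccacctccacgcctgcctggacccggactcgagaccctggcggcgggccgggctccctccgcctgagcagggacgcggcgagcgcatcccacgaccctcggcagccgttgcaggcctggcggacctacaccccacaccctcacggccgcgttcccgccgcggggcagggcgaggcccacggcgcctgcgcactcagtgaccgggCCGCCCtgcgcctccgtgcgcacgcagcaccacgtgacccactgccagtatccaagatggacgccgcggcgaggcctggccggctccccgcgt
HDAC1, chr1:32291833-32292132, plus strand: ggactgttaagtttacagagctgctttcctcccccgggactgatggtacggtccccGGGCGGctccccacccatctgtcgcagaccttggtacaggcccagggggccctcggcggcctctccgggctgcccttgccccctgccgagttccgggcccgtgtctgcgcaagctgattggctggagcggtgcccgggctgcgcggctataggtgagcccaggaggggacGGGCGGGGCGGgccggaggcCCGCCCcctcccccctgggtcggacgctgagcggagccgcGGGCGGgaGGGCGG

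The RefSeq windows used here numbered 19, for 9 of the 10 genes. HDAC5 was not matched. The outermost HDAC9 window had 41 CG dinucleotides and 75.0% G and C, and the internal one had 5 CG dinucleotides and 47.3% G and C, against a median of 14 and 58.7% over 35116 windows of the same length. The outermost HDAC4 window had 40 CG dinucleotides, and the other 4 HDAC4 windows had 3 to 10. HDAC1 had 6 GC boxes and the outermost HDAC9 window had 3. The GC box occurred in 45.0% of all windows. CCAAT, on either strand, was found in the internal HDAC9 window and the HDAC1 window of the 4 printed, and in 34.6% of all windows. TATAAA, searched on both strands, was in none of the 19 and in 11.5% of all windows. These are matches of letters and the arrays do not show which start was used.

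Signals were MAS5 intensities per probe set, with array medians between 73.3 and 75.3, and precision is limited by there being 4 arrays. Differences are on the scale of log2(signal + 29.03), where the offset is the 20th percentile of all signals. The offset shrinks ratios of dim probe sets. Of the 24 deacetylase probe sets, 19 had a mean signal at or above the minimum of 78.1, the 50th percentile of such means, and every gene kept at least 1. The 5 below it had signals between 8.16 and 97.7. KAT8 (221820_s_at), the siRNA target, had signals of 61.8 with hMOF siRNA against 241 with scramble in H1299, and of 106 against 402 in A549. The other KAT8 probe set, 214885_at, was below the signal minimum and differed less, with 39.8 against 61.7 in H1299 and 51.6 against 61.6 in A549. The treatment tag contradicts the source name on 2 of the 4 arrays, and groups follow the source name. Marker sums take the brightest probe set of each gene. The A549 markers AKR1B10, ALDH1A1, ALDH3A1, CDH1 and KRT8 summed to between 282 and 309 on the H1299 arrays. On the A549 arrays they summed to between 37027 and 42136. A dimmer CDH1 probe set differed little, at 82.7 and 73.3 in H1299 against 100 and 95.1 in A549. Of the H1299 markers only VIM was on the array. Its H1299 signal was 1.38 times that of A549 with hMOF siRNA and 1.69 times with scramble, a weaker separation. Summed markers of leukocytes were between 148 and 159 on the H1299 arrays and 237 and 245 on the A549 arrays. PTPRC was at or below 41.5 on all 4 and CD3E was at 85.6 to 88.0. CD14, with a mean below the signal minimum, was higher in A549. It had 116 and 127 in A549 (hMOF siRNA and scramble) against 28.0 and 30.4 in H1299. Summed markers of endothelium were between 348 and 378 in H1299 and 340 and 380 in A549. Those of fibroblasts were between 119 and 137 in H1299 and 662 and 1322 in A549. The A549 excess in the fibroblast sum lay mostly in COL1A1. It had 1191 and 541 in A549 (hMOF siRNA and scramble) against 7.89 and 7.97 in H1299. Another COL1A1 probe set had 332 and 154 against 6.63 and 6.78, and the remaining ones differed less. COL3A1 had 60.5 and 49.2 in A549 against 45.8 and 52.5 in H1299, and the lines overlapped. They also overlapped on PDGFRB, with 70.8 and 71.6 against 65.4 and 76.7. The part of the fibroblast markers in the line differences was not tested.

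**Figure D1:**
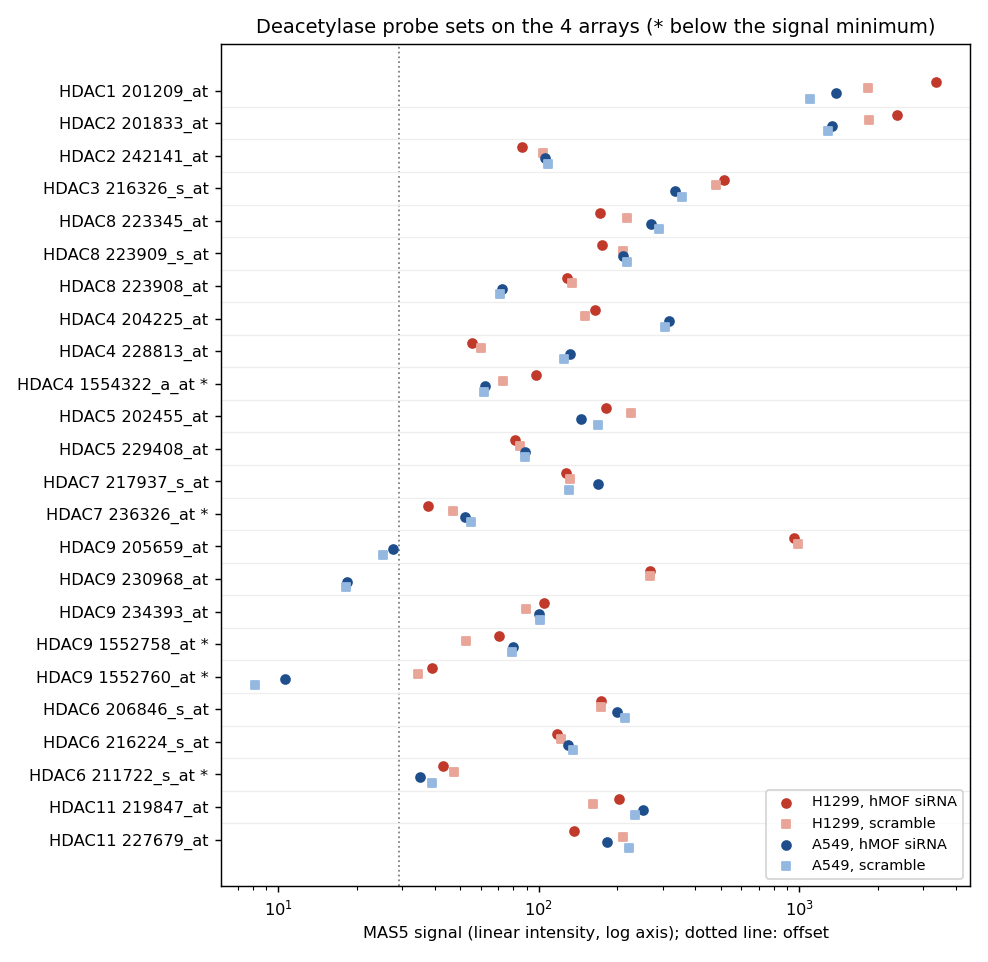
MAS5 signal (log axis) of each deacetylase probe set on the 4 arrays, with circles for hMOF siRNA, squares for scramble, red for H1299 and blue for A549; the dotted line is the offset of 29.03. The HDAC9 probe sets 205659_at, 230968_at and 1552760_at have their A549 points left of that line and their H1299 points right of it.

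The first comparison asked whether the deacetylase genes differed between cells with hMOF siRNA and cells with scramble siRNA. None of the 19 kept probe sets passed limma's test over both lines at an adjusted p under 0.05, whereas 5.95% of the 27307 probe sets tested did, 1.94% higher and 4.01% lower with hMOF siRNA. At an unadjusted p under 0.05 there were 2 of 19, HDAC1 and 1 of the HDAC11 probe sets, against 23.3% of all. On the scale with the offset, no kept deacetylase probe set was 2-fold different with hMOF siRNA in H1299 or in A549, where 2.98% and 1.62% of all kept probe sets were. The median log2 difference over the 19 was −0.01, against −0.01 over all probe sets, and the median size was 0.08 against 0.15. The lines were the only repeats, so each test rests on 2 ratios and 1 residual degree of freedom, and p-values reflect the spread among these arrays alone, which may be technical.

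HDAC1, a catalytic subunit of the SIN3, NuRD and CoREST complexes, had the highest siRNA difference of the family. Its only probe set, 201209_at, had a signal of 3365 with hMOF siRNA against 1831 with scramble in H1299, and 1380 against 1105 in A549. The hMOF siRNA array was the higher in both lines, and by more in H1299. The log2 differences were 0.87 in H1299 and 0.31 in A549, with a mean of 0.59 ± 0.39 (SD, n = 2 lines). The 95% interval ran from 0.19 to 0.99, and limma's adjusted p was 0.0936, so the value did not pass the threshold. With 1 array per group the difference between the lines could not be tested.

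HDAC2, the close paralog of HDAC1, had signals of 2375 with hMOF siRNA against 1850 with scramble in H1299 and 1343 against 1296 in A549 on 201833_at. The mean log2 difference was 0.20 (95% interval −0.11 to 0.52; limma adjusted p = 0.418). The other HDAC2 probe set, 242141_at, lay the other way, at 86.5 against 104 in H1299 and 106 against 108 in A549. The 2 HDAC2 probe sets thus gave means of 0.20 and −0.11, neither past the threshold.

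HDAC3, the catalytic subunit of the NCoR and SMRT corepressors, had signals of 516 with hMOF siRNA against 480 with scramble in H1299 and 333 against 355 in A549. The directions were opposite and the mean log2 difference was 0.01 (interval −0.29 to 0.30). HDAC8, which deacetylates the cohesin subunit SMC3, had mean differences of −0.20, −0.14 and −0.02 on 223345_at, 223909_s_at and 223908_at. None of these 3 passed, with limma adjusted p between 0.394 and 0.959.

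Among class IIa genes, HDAC5 202455_at had its lower signal on the hMOF siRNA array of each line, at 182 against 227 in H1299 and 145 against 168 in A549. Its mean log2 difference was −0.23 ± 0.07 (SD, n = 2 lines; interval −0.51 to 0.05; limma adjusted p = 0.296). HDAC5 229408_at was at −0.02. HDAC7 217937_s_at, the probe set of a gene known for its role in endothelial and lymphoid cells, had 127 with hMOF siRNA against 132 with scramble in H1299 and 169 against 130 in A549, so that only the A549 pair stood apart. HDAC4 was at 0.08 and −0.01 on its 2 kept probe sets, and HDAC9 at values from 0.00 to 0.08 on its 3.

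HDAC9 205659_at and 230968_at, the probe sets that separate the lines most, had A549 signals under the offset, which shrinks their A549 differences. HDAC9 205659_at had 952 with hMOF siRNA against 988 with scramble in H1299 and 27.6 against 25.3 in A549. Its interval for the siRNA difference was −0.28 to 0.29. HDAC9 230968_at had 269 against 267 in H1299 and 18.3 against 18.2 in A549, with an interval from −0.27 to 0.28.

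HDAC6, the cytoplasmic deacetylase, was at −0.05 and −0.04 on 206846_s_at and 216224_s_at, with intervals between −0.33 and 0.23. The HDAC11 probe sets disagreed. HDAC11 227679_at had 137 with hMOF siRNA against 211 with scramble in H1299 and 184 against 222 in A549, a mean log2 difference of −0.39 ± 0.21 (SD, n = 2 lines; interval −0.70 to −0.07; limma adjusted p = 0.144). HDAC11 219847_at had 203 against 161 in H1299 and 251 against 234 in A549, a mean of 0.19 (interval −0.11 to 0.48; adjusted p = 0.416). The first was lower and the second higher in both lines, and neither passed.

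Over the 19 kept probe sets, 9 means lay above 0 and 10 below. In 12 of the 19 both lines had the same sign, 63.2%, against 66.6% of all kept probe sets. The intervals of all 19 lay between log2 −0.70 and 0.99, and 17 of them included 0. The SEs ran from 0.11 to 0.16.

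**Figure D2:**
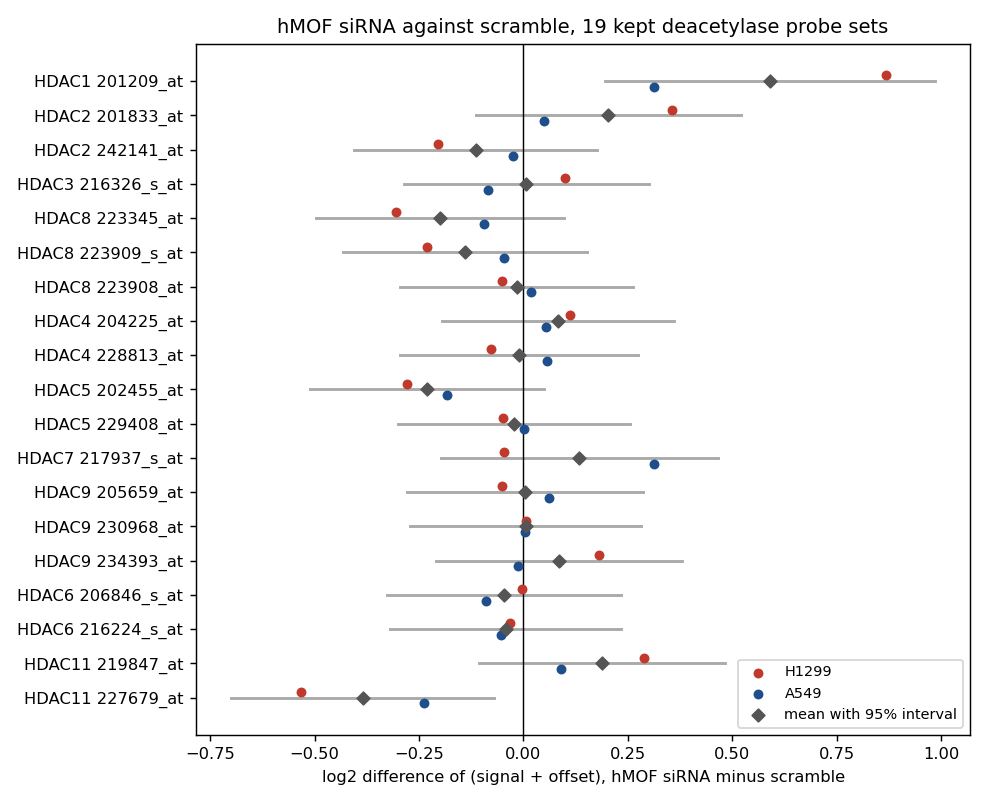
Log2 difference of signal plus offset, hMOF siRNA minus scramble, for the 19 kept deacetylase probe sets; red points are H1299, blue points A549, and diamonds the mean with its 95% limma interval. HDAC1 reaches 0.87 in H1299, HDAC11 227679_at reaches −0.53 there, and the other 17 intervals include 0.

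The next comparison set H1299 against A549, with the siRNA as a term in the model. The lines differed on 10 of the 19 kept probe sets, 52.6%, by limma at an adjusted p under 0.05, against 50% of all kept probe sets. Of these, 6 were higher in H1299 (25.3% of all were) and 4 were lower in H1299 (24.6% of all). The share of deacetylase probe sets called is near that of all probe sets. On 4 of the 19, HDAC9 205659_at and 230968_at, HDAC4 228813_at and HDAC8 223908_at, both arrays of 1 line were under the signal minimum, so they were kept only through the line in which they are high. All 4 were called, as were 6 of the other 15. A mean difference of 2-fold was reached by 2 of the 19, both of HDAC9, 10.5% against 17.8% of all. The arrays of the lines did not overlap on 15 of the 19, 78.9%, against 69.3% of all. The median size of the log2 difference was 0.37 over the 19 and 0.38 over all.

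HDAC9, the class IIa member known as a MEF2 corepressor in muscle and lymphoid cells, had the widest differences. HDAC9 205659_at had signals of 952 and 988 on the H1299 arrays (hMOF siRNA and scramble), against 27.6 and 25.3 on the A549 arrays. The H1299 signal was 34.4 times that of A549 with hMOF siRNA and 39.1 times with scramble. These ratios rest on A549 signals under the offset, so their size is uncertain. On the scale with the offset the difference was 4.17 ± 0.08 (SD, n = 2 siRNAs; interval 3.89 to 4.45), an 18.0-fold difference with a limma adjusted p of 6.95e-06.

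HDAC9 230968_at had 269 and 267 in H1299 against 18.3 and 18.2 in A549, a log2 difference of 2.65 (interval 2.37 to 2.93; adjusted p = 2.57e-05). Both A549 signals lay under the offset on each of these probe sets, so their folds and p-values are set in part by it. Both probe sets were kept only through H1299, the line in which they are high, so their calls are no separate support. With no offset the differences were 5.20 and 3.88. Detection calls were not used here, so it was not tested whether A549 expressed HDAC9 at all.

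The other HDAC9 probe sets did not all follow. HDAC9 1552760_at, below the signal minimum, had 39.0 and 34.5 in H1299 against 10.6 and 8.16 in A549. HDAC9 234393_at had 105 and 89.1 in H1299 against 100.3 and 101 in A549 (log2 −0.05; interval −0.34 to 0.25), and the lines overlapped. HDAC9 1552758_at, also below the minimum, had 70.6 and 52.4 in H1299 against 79.5 and 79.1 in A549. Which exons each probe set covers was not analysed here.

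**Figure D3:**
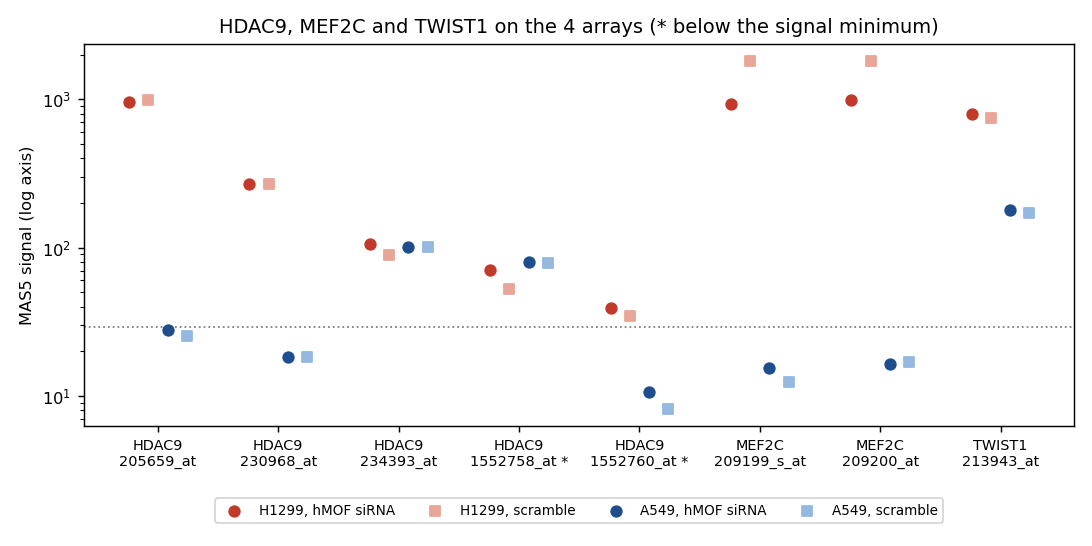
MAS5 signal (log axis) on the 4 arrays for the 5 HDAC9 probe sets, the 2 MEF2C probe sets with the widest line difference and TWIST1, a gene near HDAC9; red is H1299, blue A549, circles hMOF siRNA and squares scramble, with the offset of 29.03 as a dotted line. HDAC9 205659_at and 230968_at and both MEF2C probe sets have A549 points under the line and H1299 points above 200.

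HDAC4, the class IIa member best known for restraining chondrocyte and muscle gene programmes, was lower in H1299 than in A549 on 204225_at. HDAC4 204225_at had 164 and 150 in H1299 against 318 and 305 in A549 (log2 −0.87 ± 0.04, SD, n = 2 siRNAs; interval −1.15 to −0.59; limma adjusted p = 0.00160). HDAC4 228813_at had 55.3 and 60.0 in H1299 against 131 and 125 in A549 (log2 −0.86; adjusted p = 0.00183), but it was kept only through A549 and is no separate support. The lines did not overlap on either. The third HDAC4 probe set, 1554322_a_at, was below the signal minimum and lay the other way, with 97.7 and 73.2 in H1299 against 62.1 and 61.5 in A549.

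HDAC5 and HDAC7 did not pass. HDAC5 202455_at had 182 and 227 in H1299 against 145 and 168 in A549 (log2 0.33; interval 0.05 to 0.61; limma adjusted p = 0.0574). It passed with quantile normalization, with centring on the array median and with no signal minimum. HDAC7 217937_s_at had 127 and 132 in H1299 against 169 and 130 in A549 (log2 −0.16; interval −0.49 to 0.17), so the lines overlapped. HDAC5 and HDAC7 were not called on any of their 3 kept probe sets.

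The class I genes HDAC1 and HDAC3 were higher in H1299 on their only probe sets, and HDAC2 on 1 of 2. HDAC1 201209_at had 3365 and 1831 in H1299 against 1380 and 1105 in A549, a ratio of 2.44 with hMOF siRNA and 1.66 with scramble (mean log2 0.99 ± 0.39, SD, n = 2 siRNAs; interval 0.60 to 1.39; limma adjusted p = 0.00373). Every H1299 array was above every A549 array. The H1299 scramble signal stood nearer to the A549 signals than the H1299 hMOF siRNA signal did.

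HDAC2 201833_at had 2375 and 1850 in H1299 against 1343 and 1296 in A549 (log2 0.66; interval 0.34 to 0.97; adjusted p = 0.00776). HDAC2 242141_at had 86.5 and 104 in H1299 against 106 and 108 in A549 and did not pass (log2 −0.13; adjusted p = 0.395). HDAC3 216326_s_at had 516 and 480 in H1299 against 333 and 355 in A549 (log2 0.50; interval 0.21 to 0.79; adjusted p = 0.0159).

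The HDAC8 probe sets were called in opposite directions. HDAC8 223908_at had 128 and 134 in H1299 against 72.4 and 71.1 in A549 (log2 0.67; interval 0.39 to 0.95; limma adjusted p = 0.00447), and was kept only through H1299. HDAC8 223345_at had 171 and 219 in H1299 against 270 and 291 in A549 (log2 −0.47; interval −0.77 to −0.18; adjusted p = 0.0201). The third, 223909_s_at, had overlapping lines, with 175 and 211 in H1299 against 210 and 218 in A549. No direction can be given for HDAC8 as a gene.

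HDAC6 was not called between the lines, and HDAC11 was called on 1 of 2 probe sets. HDAC6 206846_s_at had 173 and 174 in H1299 against 199 and 214 in A549 (log2 −0.22; interval −0.50 to 0.06), and 216224_s_at was at −0.12. The lines did not overlap on either HDAC6 probe set, yet neither passed. HDAC11 219847_at had 203 and 161 in H1299 against 251 and 234 in A549 (log2 −0.37; interval −0.66 to −0.07; limma adjusted p = 0.0457), a call that was lost with quantile normalization (0.0590) and with centring on the array median (0.0576). HDAC11 227679_at had 137 and 211 in H1299 against 184 and 222 in A549, and the lines overlapped.

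**Figure D4:**
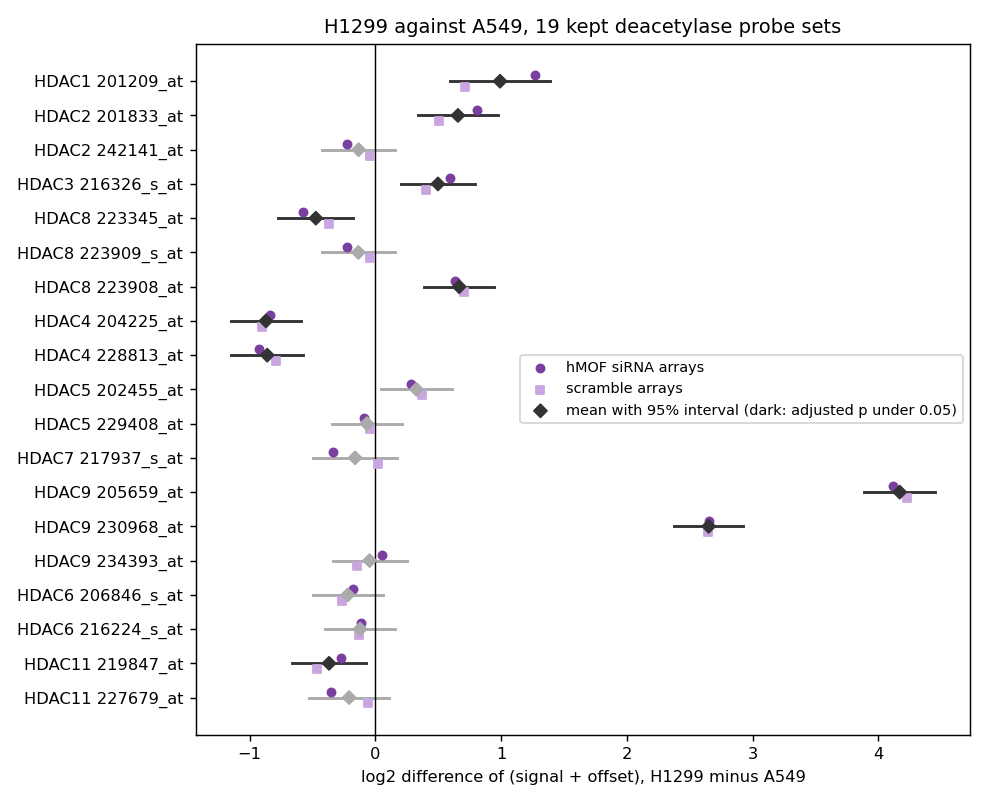
Log2 difference of signal plus offset, H1299 minus A549, for the 19 kept deacetylase probe sets; circles are the hMOF siRNA arrays, squares the scramble arrays, and diamonds the mean with its 95% limma interval, dark where the adjusted p is under 0.05. HDAC9 205659_at and 230968_at stand at 4.17 and 2.65, and the other 17 lie between −0.87 and 0.99.

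The genes around HDAC9 and those with a like pattern were set beside it. TWIST1, which encodes a mesenchymal transcription factor and is the nearest protein-coding gene with a named probe set on 1 side of HDAC9 in RefSeq order, had 791 and 745 in H1299 against 178 and 170 in A549 (log2 1.97; limma adjusted p = 7.53e-05). The other neighbours on either side did not show this difference. FERD3L, beyond TWIST1, was below the signal minimum, with 68.4 and 69.2 in H1299 against 78.4 and 64.8 in A549. On the other side, PRPS1L1 was below the signal minimum, at 57.0 to 69.8 on all arrays, and SNX13 was at −0.33, −0.50 and 0.01 on its 3 kept probe sets, of which 213292_s_at was lower in H1299 (adjusted p = 0.0148). These neighbours were chosen after the HDAC9 values were seen. Over the 4 arrays, the kept probe sets of other genes most like HDAC9 205659_at, by the root mean square difference of their centred log2 values, were those of PLAAT1 (0.03), MTAP (0.07) and RNF182 (0.08), with line differences of 4.21, 4.12 and 4.25. They were chosen by this likeness on the same arrays, so their line differences follow from the choice and are no separate support. The probe sets of PLAAT1 and MTAP were also kept only through H1299. The A549 signals of PLAAT1 (22.8 and 21.8) and MTAP (8.31 and 9.19) lay under the offset, as those of HDAC9 did. The likeness is thus set in part by the offset. Without it, the H1299 signal of MTAP was 69.7 and 74.0 times that of A549 and that of RNF182 was 22.7 and 20.8 times. The MTAP ratios rest on A549 signals under the offset, so their size is uncertain.

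The proteins with which the deacetylases work were taken from 9 lists of 72 gene symbols, of which 62 had 148 kept probe sets. With hMOF siRNA, 4 of the 148 rose, 3 fell and 141 did not pass, 4.73% called against 5.95% of all. They are described by role, first the corepressor subunits and then the regulators and substrates of class II enzymes.

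Among the class I corepressor subunits, SAP18 208740_at of the SIN3 complex rose, with 186 with hMOF siRNA against 95.3 with scramble in H1299 and 312 against 176 in A549 (mean log2 0.76; limma adjusted p = 0.0249). The other SAP18 probe sets, 208742_s_at and 208741_at, were at 0.10 and 0.25 and did not pass. MTA1, a NuRD subunit with 1 kept probe set, rose to 1246 against 505 in H1299 and 730 against 445 in A549 (log2 0.97; adjusted p = 0.0327). TBL1X, a subunit of the NCoR and SMRT complexes, rose on 1 of 5 kept probe sets (0.62; adjusted p = 0.0374), and the other 4 were at 0.26 to 0.51. TRERF1, a subunit of the MiDAC complex, fell on 1 of 2, with 96.4 against 209 in H1299 and 45.6 against 79.9 in A549 (log2 −0.74; adjusted p = 0.0406). The other TRERF1 probe set, 238520_at, was at −0.79 with an adjusted p of 0.0544. Called counts were 1 of 34 probe sets for SIN3, 1 of 17 for NuRD, 0 of 13 for CoREST, 1 of 11 for NCoR and SMRT and 1 of 6 for MiDAC. These lists are too short for a share to be read.

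Among the kinases that phosphorylate class IIa deacetylases, 2 of 21 kept probe sets fell with hMOF siRNA and none rose. Of all probe sets 4.01% fell, and the kinase list is too short for a share to be read. SIK2 213221_s_at had 326 with hMOF siRNA against 643 with scramble in H1299 and 264 against 421 in A549 (mean log2 −0.77; limma adjusted p = 0.0320). SIK3 213034_at had 275 against 559 in H1299 and 296 against 457 in A549 (−0.77; adjusted p = 0.0361). The other kept probe sets of these salt-inducible kinases, at −0.43 for SIK2 and −0.16 and −0.42 for SIK3, did not pass. Cortactin, the actin-binding substrate of HDAC6, rose on CTTN 201059_at, to 1700 against 668 in H1299 and 1949 against 970 in A549 (log2 1.15; adjusted p = 0.0157). The other 3 CTTN probe sets were at −0.23, 0.41 and −0.10 and did not pass. None of the 9 kept MEF2 and 18 kept 14-3-3 probe sets was called with hMOF siRNA, where 5.95% of all were. These lists are also too short for a share to be read.

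Between the lines, 59 of the 148 partner probe sets were called, 34 higher and 25 lower in H1299, 39.9% against 50% of all. MEF2 factors, the DNA-binding partners of class IIa enzymes, had 6 of 9 probe sets higher in H1299, 3 each of MEF2A and MEF2C, none lower and 3 not called, where 25.3% of all probe sets were higher. This list, too, is too short for a share to be read. MEF2C 209200_at had 991 and 1800 in H1299 (hMOF siRNA and scramble) against 16.3 and 16.8 in A549 (log2 4.91), and 209199_s_at had 934 and 1801 against 15.3 and 12.5 (log2 4.95). All A549 signals of these MEF2C probe sets lay under the offset, as for HDAC9. On all 3 MEF2C probe sets both A549 signals were under the signal minimum. They were kept only through H1299, where they are high, so their calls are no separate support. MEF2A was higher in H1299 on its 3 probe sets, at 0.69, 1.04 and 0.61, and MEF2D was not called on any of 3; these were named after their values were seen. Within H1299 the MEF2C signal was lower with hMOF siRNA, at log2 −0.84 and −0.93, while in A549 the differences were −0.02 and 0.10, and the test over both lines did not pass (adjusted p = 0.280 and 0.371).

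DNTTIP1, the MiDAC scaffold that binds HDAC1 and HDAC2, was higher in H1299, with 2402 and 2866 against 587 and 544 in A549 on 224825_at (log2 2.16; limma adjusted p = 0.000103). SIK1, a further class IIa kinase, was lower in H1299 on 208078_s_at, with 29.8 and 26.6 against 3675 and 4028 in A549. Its H1299 signals lay so near the offset that no fold is given, and the probe set was kept only through A549. The other kept SIK1 probe set was at −0.08 and was not called. SFN, the epithelial 14-3-3 protein, was lower in H1299 as well, with 83.2 and 75.8 in H1299 against 3381 and 2696 in A549 on 33323_r_at (log2 −4.81), and was called lower on all 3 kept probe sets. Among SIN3 subunits, RBBP4 was higher in H1299 on 5 of 6 kept probe sets and lower on none, with 1.12 on 244872_at. SAP30L had calls both ways, 2 of 5 kept probe sets higher and 1 lower, from −1.42 to 0.52. Among NuRD subunits, 4 of 17 kept probe sets were higher in H1299 and 4 lower, where 25.3% and 24.6% of all were. The NuRD list is too short for a share to be read. MBD3 was lower on 1 of 3 kept probe sets (222183_x_at, −1.03, kept only through A549) and GATAD2B higher on 1 of 2 (238076_at, 0.92). The other MBD3 and GATAD2B probe sets were not called. CHD3 was lower on both of its 2 kept probe sets, and GATAD2A had calls both ways, 2 higher and 1 lower.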

How the data were processed

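Total RNA, 6 ug per sample, was labelled with biotin and hybridised to Affymetrix arrays of 54675 probe sets, per the labels. Each deposited value is a linear intensity of 1 probe set from MAS5, per the submitters' processing notes. No version or scaling target is given in the sources used. Gene names came from the platform annotation, with symbols looked up by gene identifier in RefSeq, GRCh38.p14, which changed 0. The 62 controls were left out. Values were used as log2(signal + 29.03) without further scaling, and 27307 probe sets with a mean signal of at least 78.1 were tested. limma 3.58.1 in R 4.3.3 was fitted to the 4 arrays, with the line and the siRNA as terms. The fit had 1 residual and 4.82 prior degrees of freedom. The Benjamini-Hochberg threshold was 0.05, and intervals are 95%, unadjusted. Probe sets below the minimum are given as signals only. Ratios within a line are 1 array against 1 array, with no test. Levels of different probe sets were not compared.

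The members and lists were chosen with earlier results of these data known. Named were KAT8, every deacetylase probe set, partners called with siRNA, the 2 highest and 2 lowest partners per list between lines, of which examples are printed, and the 3 probe sets most like the deacetylase probe set of widest range. The procedure was tested on simulated data. Figures were drawn with matplotlib 3.10.9. The alternatives were 2 offsets (0 and 56.4), no signal minimum or one of 179, quantile normalization, median centring, 1 or averaged probe sets per gene, no _x_at probe sets, no term for the other factor, and eBayes with trend.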

Additional observations from a re-analysis of the deposited data

Results flagged for a closer look

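On 7 of the 19 kept deacetylase probe sets the hMOF siRNA to scramble difference had opposite signs in the lines, with 1 array pair per line, so the difference between the lines was not tested. The widest was HDAC7 217937_s_at, at log2 −0.05 in H1299 and 0.31 in A549, a gap of −0.36. HDAC9 234393_at was at 0.18 and −0.01 (gap 0.19), and HDAC3 at 0.10 and −0.09 (gap 0.19). HDAC4 228813_at was at −0.08 and 0.06 (gap −0.13), and HDAC9 205659_at at −0.05 and 0.06 (gap −0.11). HDAC8 223908_at was at −0.05 and 0.02 (gap −0.070), and HDAC5 229408_at at −0.05 and 0.00 (gap −0.050). In 66.6% of all kept probe sets the signs were the same.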

How the results depend on the processing

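No deacetylase probe set or gene was called with hMOF siRNA under any of the alternatives run, and none was 2-fold in either line. For HDAC1 the limma adjusted p ran from 0.0752 to 0.124 while cell line was in the model. Between the lines, the 10 calls became 6 of 10 genes with 1 probe set per gene and 4 of 10 with averaged probe sets, where fewer features were tested. HDAC9 205659_at and 230968_at and both HDAC4 probe sets were called in the same direction under each alternative that kept them. Without a term for siRNA, HDAC1 (0.0882), HDAC8 223345_at (0.0851) and HDAC11 219847_at (0.139) lost their calls, and HDAC11 also with 1 probe set per gene (0.0501). HDAC5 202455_at gained one with no signal minimum (0.0479), quantile normalization (0.0421) and centring (0.0468). Causes were not tested. No called value changed sign, and 1 siRNA value that was not called did. Over all probe sets the siRNA test called 1625, against 458 and 542 with single or averaged probe sets per gene and 0 without a term for cell line, where 761 had an unadjusted p under 0.05. The line test called 13645, against 6723 and 6799 with single or averaged probe sets and 8344 without a term for siRNA. The siRNA test already pairs the arrays of a line through the cell line term. Signals near the offset limit the HDAC9 folds.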
